A study of Saccharomyces cerevisiae with 24 samples.

Results

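The respiratory yeast strain V5.TM6*P was followed at 6 residual glucose concentrations, 5.6, 13.5, 25.1, 26.3, 34.8 and 36.5 g/L, as a batch culture used up its sugar. Its RNA samples were taken by strain label and sampling number, and they make up 6 of the 12 RNA samples and 12 of the 24 arrays of the series. The other 6 RNA samples come from the parent V5 at 7.4, 10.5, 24.4, 25.5, 35 and 38.4 g/L, measured in the same way. V5.TM6*P is V5 that lacks the hexose transporter genes HXT1 to HXT7 and carries an integrated chimeric transporter, Tm6*, whose amino-terminal part comes from Hxt1 and whose carboxy-terminal part comes from Hxt7. V5 keeps its own transporters. Both strains were made prototrophic with URA3 and grown in aerated bioreactors on defined minimal medium at constant temperature and pH. The methods give 2 fermentations per strain, and the labels do not say which sample came from which, so several samples share a culture and p-values may rest on fewer independent units than they assume.

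Budding yeast normally represses respiration and the use of other carbon sources while glucose is plentiful. The Snf3 and Rgt2 sensors at the membrane, hexose phosphorylation inside the cell, the Snf1 kinase and the repressor Mig1 set this state, and the repressed genes come on as glucose runs out. Mig1 binds GC-rich sites, with an AT-rich stretch beside them, upstream of genes such as those of sugar kinases and of maltose uptake. Hexose transport sets how much glucose enters the cell, so a strain with restricted uptake separates the glucose in the medium from the glucose that is metabolised. The question put to these samples is whether transcripts of V5.TM6*P followed the residual glucose.

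Amplified RNA was made into radioactive cDNA and bound to filters spotted with PCR products of yeast ORFs, which gave a level for each of 6330 probes. A level is the log2 intensity of a probe minus the median of all probes of its array, averaged over the 2 arrays of an RNA sample, so 0 is the median probe and a change in total mRNA per cell would not be seen. For every probe a straight line on glucose was fitted in each strain with limma, and its slope is given below as a change, the fitted log2 difference over a fall of 28 g/L glucose. A positive change is a higher level at low glucose. Adjusted p-values are limma's after Benjamini-Hochberg adjustment over all 6330 probes. The V5.TM6*P arrays had median net intensities of 11.4 to 22.9 over median backgrounds of 15 to 31.5, and 1.12 to 2.05% of their spots lay under the floor of 0.1. The 2 arrays of the 13.5 g/L sample correlated at 0.749, against 0.820 to 0.863 for the other V5.TM6*P samples. Image names give 3 of the 12 arrays, both at 36.5 g/L and 1 at 34.8 g/L, another code than the rest. The titles give 1 code to all. The code in the image names is read here as a print lot, which the labels do not say. It overlaps with high glucose in V5.TM6*P. Changes without these 2 samples are given where they move the change of a gene at an unadjusted p under 0.05 by over 1.5 times, and for the genes with the lowest p.

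No transcript passed the test for a trend on glucose in V5.TM6*P. Called probes made up 0% of those tested, 0 of 6330 by limma, and the smallest adjusted p was 0.316. At an unadjusted p under 0.05 there were 378 probes, or 5.97%, with 146 higher at low glucose (2.31%) and 232 lower (3.67%). The median change was -0.02, the median size of a change was 0.29 whatever its sign, and 620 probes (9.79%) had a fitted change of more than 1 in either direction. Other processing gave 0 to 3 called probes, the most when all 24 arrays were fitted with the RNA sample as a block. In V5 the same fit called 1 probe, 0.0158%, the hexokinase gene HXK1, and 770 probes, or 12.2%, had an unadjusted p under 0.05, 364 of them higher (5.75%) and 406 lower (6.41%). Leaving out single samples gave 0 to 4 calls in V5. With all 24 arrays in the fit the calls were 3 in V5.TM6*P and 140 in V5, and after normexp and quantile normalization 2 and 151. The difference between the slopes of the strains was itself called for 0% of probes, 0 of 6330 by limma, with a smallest adjusted p of 0.213 and 515 probes (8.14%) at an unadjusted p under 0.05. The change was higher in V5.TM6*P than in V5 for 4.03% of all probes and lower for 4.11%. Other processing called 0 to 5 probes for this difference.

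**Figure D1:**
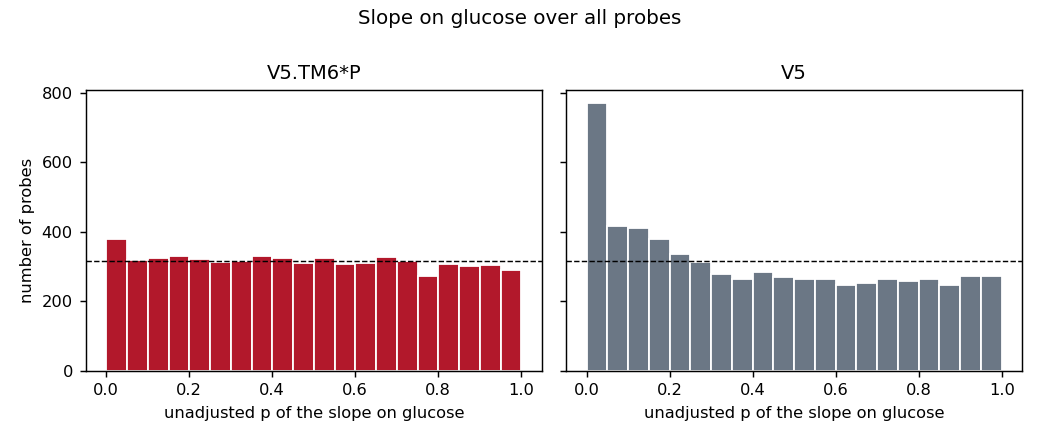
Unadjusted p-values of the slope on glucose for all 6330 probes, V5.TM6*P left and V5 right (x axis p in steps of 0.05, y axis number of probes). The dashed line is the height of a flat distribution. The lowest bar holds 378 probes in V5.TM6*P and 770 in V5.

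Few probes also differed between the ends of the glucose range. The mean of the samples at 5.6 and 13.5 g/L was set against that of the samples at 34.8 and 36.5 g/L, with no straight line assumed. This called 1 probe, 0.0158% of those tested, and 403 (6.37%) had an unadjusted p under 0.05, 177 higher (2.8%) and 226 lower (3.57%). An F test over the low, middle and high glucose pairs called the same single probe, 0.0158%, with 5.5% of probes at an unadjusted p under 0.05. That probe has no gene name here. Its levels in V5.TM6*P were -4.31, -4.42, -1.10, -0.92, -1.35 and -1.47 from 5.6 to 36.5 g/L, a difference of -2.96 ± 0.25 (SE, adjusted p = 0.0101). Among its 12 V5.TM6*P arrays, 2 lay at the intensity floor, and the call was lost with no floor, with a floor of 1 and with the authors' table. In V5 the same contrast called 0% of probes, 0 of 6330 by limma, and gave 699 (11%) at an unadjusted p under 0.05, 325 higher (5.13%) and 374 lower (5.91%). The mutant's sample at 5.6 g/L weighed heavily on these counts: without it the low against high contrast called 32 probes, 31 of them lower at low glucose, and the F test 31. Without the 3 arrays of the other print lot these tests called 35 and 25 probes.

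The spread among the 6 V5.TM6*P samples was set beside that between repeat arrays. The median SD of a probe over the 6 samples was 0.35 on the log2 scale, and the SD between 2 arrays of a sample, 0.43, would by itself give 0.31 for means of 2 arrays. In V5 the 3 values were 0.37, 0.46 and 0.33, so these medians do not separate the strains. Levels in any pair of V5.TM6*P samples correlated at 0.870 to 0.917 across probes, and those at 5.6 and 36.5 g/L, the ends of the range, correlated at 0.903. Genes are not independent replicates, and these correlations describe the samples only.

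Gene names could be given to 1045 probes, those of genes that the study listed for a difference between the strains in these same samples. A list that the study computed without its lowest glucose samples, of genes absent from its other lists, gave 128 of these names. The counts below therefore describe a set chosen on the strain difference, in part with low glucose left out, and are no sample of the genome. The choice was thus not independent of glucose, and how far it moved the shares below was not tested. Of the 1045, 55 (5.26%) had an unadjusted p under 0.05 for the V5.TM6*P slope, 20 higher at low glucose and 35 lower, against 195 (18.7%) for the V5 slope, 131 higher and 64 lower. For the slope difference there were 124 (11.9%), and in 87 of these the change was lower in V5.TM6*P than in V5. Probes of close paralogues, such as HXT6 and HXT7, GLK1 and EMI2 or TDH2 and TDH3, can hybridize to each other's transcripts.

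By p, HXK1 and EMI2 came first among named genes for the difference between the slopes, and GLK1 was among the 10 lowest. HXK1 encodes a hexokinase, GLK1 the glucokinase and EMI2 a glucokinase-like paralogue of Glk1. The 31 genes induced in V5.TM6*P that the study marks for a Mig1 site of any class hold all of these. They also hold the maltose permease gene MAL31 and the lactate dehydrogenase gene CYB2. These 5 are also among 13 genes taken here for a listed site that begins with CCCC, then G or A, then G or C. The listed sites of the 5 genes are shown because the values that follow are those of these genes. The GC-rich core is in capitals and the rest of the listed site in lower case. The AT content of the rest was not measured, and in CYB2 sites 1 and 2 it holds G and C. No genome sequence was used here, so strand and position are not given and no count of such sites over all promoters was made.
HXK1 site 1: CCCCGGatttt
HXK1 site 2: CCCCACtatt
HXK1 site 3: CCCCGGaaattttatta
GLK1: CCCCGCattataa
EMI2: CCCCGCgtttttt
MAL31: CCCCACaaaaattat
CYB2 site 1: CCCCACgctttt
CYB2 site 2: CCCCACtcaagt
CYB2 site 3: CCCCGGtata

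HXK1 had levels of 6.18, 6.55, 6.52, 6.37, 6.12 and 6.96 in V5.TM6*P from 5.6 to 36.5 g/L, against 5.36, 5.62, 3.32, 2.90, 2.75 and 1.32 in V5 from 7.4 to 38.4 g/L. All 6 V5.TM6*P samples lay above the highest V5 sample, and the highest of them was the one with the most glucose. The change in V5.TM6*P was -0.25 ± 0.41 (SE), with a 95% interval of -1.16 to 0.66, which does not reach the V5 change of 3.56 ± 0.40 (11.8-fold, adjusted p = 0.0195). The slope difference, V5.TM6*P minus V5, was -3.81 with a 95% interval of -5.07 to -2.54 and an adjusted p of 0.213. It passed the threshold with the authors' table, with a robust trended variance and with all 24 arrays in the fit, and failed it in the other settings.

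EMI2 and GLK1 had the same shape. EMI2 stood at 2.56, 2.59, 2.85, 2.67, 3.08 and 3.09 in V5.TM6*P, against 1.76, 1.43, 0.67, 0.73, 0.35 and -0.61 in V5. Its change was -0.50 ± 0.26 (SE) in V5.TM6*P and 1.78 ± 0.25 in V5, and the difference of -2.28 (95% interval -3.07 to -1.49) had an adjusted p of 0.213. The EMI2 difference passed the threshold in the same settings as that of HXK1 and also after normexp and quantile normalization. GLK1 stood at 2.99, 3.62, 2.84, 2.60, 3.47 and 3.07 in V5.TM6*P, against 2.25, 2.55, 0.81, 1.04, 0.43 and -0.32 in V5. Its change was 0.04 ± 0.37 in V5.TM6*P and 2.37 ± 0.36 in V5, a difference of -2.33 (95% interval -3.48 to -1.17, adjusted p = 0.422). That difference passed the threshold only with all 24 arrays in the fit. In both genes all 6 V5.TM6*P samples lay above the highest V5 sample, and at the lowest glucose sampled the strains were within 1 log2 unit of each other.

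MAL31 had fitted slopes of opposite sign in the strains. Without the samples at 34.8 and 36.5 g/L its V5.TM6*P change was -0.71. Its levels were 2.79, 2.90, 3.53, 3.06, 3.45 and 4.14 in V5.TM6*P and 2.12, 2.29, 1.12, 1.54, 1.73 and 0.52 in V5, so the low glucose samples were the lowest in V5.TM6*P and the highest in V5. The change was -0.98 ± 0.39 (SE) in V5.TM6*P (adjusted p = 0.760) and 1.16 ± 0.37 in V5, with a difference of -2.13 and a 95% interval of -3.33 to -0.94. CYB2 scattered in V5.TM6*P with no order by glucose, at 4.20, 4.94, 5.12, 4.66, 3.87 and 5.28, against 2.47, 2.67, 1.31, 1.15, 0.73 and 0.90 in V5. Its change was -0.20 ± 0.46 in V5.TM6*P and 1.76 ± 0.44 in V5.

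Of the 31 genes marked for any Mig1 site, 29 had a named probe. Their median change was -0.20 in V5.TM6*P, where 20 of 29 were below 0, against 3261 of all 6330 probes. An unadjusted p under 0.05 was found for 2, MAL31 and the peroxisomal citrate synthase gene CIT2, both lower (6.90%, against 5.97% of all probes). In V5 the median was 0.80. There 13 of 29 had an unadjusted p under 0.05 and were higher at low glucose, against 5.75% of all probes and 131 of the 1045 named probes. The 2 lower at such a p were the hexose transporter gene HXT15 (-2.30) and the ammonia transport gene ATO2 (-1.45), against 6.41% of all probes. In all, 8 of the 29 had a negative change in V5, among them also FBP1 (-1.63), HPA3 (-1.60), SFC1 (-0.63) and PCK1 (-0.59). The slope difference had an unadjusted p under 0.05 in 14 of the 29, 13 lower in V5.TM6*P and 1, HXT15, higher. Over all probes that share was 8.14%, and over the named probes 11.9%.

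The 13 genes taken here for the form of a listed site, of which 11 had a named probe, had medians of -0.25 in V5.TM6*P and 1.31 in V5. In V5.TM6*P 10 of 11 were below 0, against 3261 of all 6330 probes, and 1, MAL31, had an unadjusted p under 0.05. In V5 7 of 11 had such a p, all higher at low glucose, against 131 of the 1045 named probes. The medians over all probes were -0.02 in both strains. The study picked the 31 among genes induced in V5.TM6*P in these samples. The 13 were taken here from the sites it lists, so neither is an independent set.

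**Figure D2:**
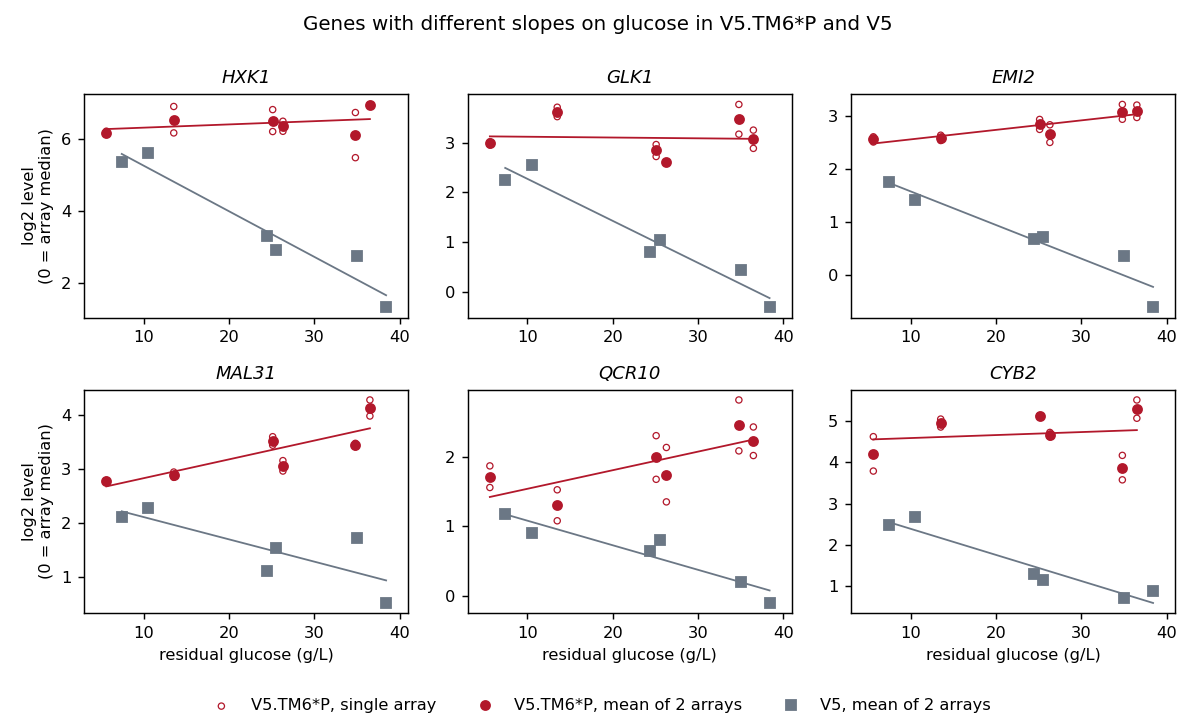
Log2 level (y axis, 0 is the array median) against residual glucose in g/L (x axis) for 6 genes, with V5.TM6*P in red and V5 in grey. Filled symbols are RNA samples, open circles single V5.TM6*P arrays, and lines the fitted slopes. V5.TM6*P stayed above V5 in all 6 panels, and its HXK1 samples lay between 6.12 and 6.96.

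The 10 named genes with the lowest p for the slope difference were HXK1, EMI2, GLK1, MAL31, QCR10, IRS4, YLR311C, RCF1, HXT7 and YPR148C. In all 10 the change was lower in V5.TM6*P than in V5, by 1.34 to 3.81 on the log2 scale, with adjusted p between 0.213 and 0.422. In 9 of the 10 the V5 slope had an unadjusted p under 0.05. QCR10, a subunit of respiratory complex III, stood at 1.71, 1.30, 1.99, 1.74, 2.45 and 2.22 in V5.TM6*P, against 1.18, 0.90, 0.64, 0.81, 0.20 and -0.10 in V5. Its changes of -0.75 ± 0.28 (SE) in V5.TM6*P and 0.99 ± 0.26 in V5 had opposite signs, and the 2 sets of samples did not overlap. In V5.TM6*P the change was -0.38 without the samples at 34.8 and 36.5 g/L and -1.27 without the one at 5.6 g/L. RCF1, a factor that holds respiratory supercomplexes together, likewise had a change of -0.69 ± 0.25 in V5.TM6*P and 0.69 ± 0.24 in V5. IRS4, which takes part in phosphoinositide metabolism, had a change of -0.22 ± 0.23 in V5.TM6*P, with a 95% interval of -0.72 to 0.29, and 1.12 ± 0.22 in V5. Its slope difference passed the threshold only with all 24 arrays in the fit.

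Levels of the deleted transporter genes were set beside V5. Their probes were named in part by matching the published factor between the strains, so their direction is no check of the strain labels. HXT2, HXT3 and HXT4 lay below the lowest V5 sample in all 6 V5.TM6*P samples, and HXT1 did so in 5 of 6. HXT6, a high-affinity transporter gene that is deleted as well, did not lie below V5 in this way. Its levels were between 2.92 and 3.83 in V5.TM6*P, against 3.22, 2.66, 2.04, 2.02, 1.98 and 1.95 in V5 from 7.4 to 38.4 g/L. It lay below the lowest V5 sample in 0 of 6 V5.TM6*P samples and above the highest in 4 of 6. HXT1, a low-affinity transporter made at high glucose, stood at 3.89, 4.02, 4.10, 3.78, 4.09 and 4.23 in V5.TM6*P, with no order by glucose, against 4.95, 4.15, 5.52, 5.99, 5.88 and 6.22 in V5. Its change was -0.21 ± 0.34 (SE) in V5.TM6*P and -1.51 ± 0.32 in V5. The HXT6 and HXT7 probes can both detect related genes and the Hxt7 part of Tm6*. The HXT7 probe was between 7.85 and 8.21 in V5.TM6*P at every glucose level, with a change of -0.25 (95% interval -0.87 to 0.36). In V5 it ran between 6.35 and 8.13 with a change of 1.29. Hybridization to other transporter genes means that levels in the deleted strain are not zero and cannot be read as expression of the deleted gene.

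HXT2, which encodes a high-affinity transporter, also had one of the lowest p-values for the V5.TM6*P slope, although it is deleted there. Its level was -2.22, -1.40, -1.19, -1.12, -0.65 and -0.91 from 5.6 to 36.5 g/L, below every V5 sample. The change was -1.18 ± 0.35 (SE, adjusted p = 0.515), and -0.79 without the sample at 5.6 g/L. What the probe detected in these samples was not tested. Of the 10 named transporter and sensor genes, 0 were higher and 1, HXT2, was lower at an unadjusted p under 0.05 in V5.TM6*P, against 3 higher and 2 lower in V5.

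Among genes with a trend in V5.TM6*P, the transcript with the lowest p was STP4, which encodes a zinc-finger protein related to the amino acid signalling factors Stp1 and Stp2. Its levels were 1.32, 1.49, 2.44, 2.09, 2.97 and 2.74 from 5.6 to 36.5 g/L, against 0.51, 0.34, 1.14, 1.30, 1.54 and 1.52 in V5 from 7.4 to 38.4 g/L. Both low glucose samples were the lowest of their strain, in V5.TM6*P as in V5. The change was -1.49 ± 0.24 (SE) in V5.TM6*P (2.81-fold lower, 95% interval -2.02 to -0.96, adjusted p = 0.316) and -1.11 in V5 (adjusted p = 0.119), and the strains differed by -0.38 with a 95% interval of -1.11 to 0.35. Leaving out any 1 V5.TM6*P or V5 sample gave changes between -1.68 and -1.36, and without both samples that hold arrays of the other print lot the change was -1.38. STP4 passed the threshold for the V5.TM6*P slope under 3 other settings, with adjusted p of 0.0144 after normexp and quantile normalization, 0.0300 with a robust trended variance and 0.00616 with all 24 arrays.

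The next lowest p among named genes lower at low glucose were those of YPR148C, MRX12 and ISF1. YPR148C, a protein of unknown function, stood at 1.23, 0.86, 1.88, 2.38, 2.50 and 2.61 in V5.TM6*P and between 0.46 and 1.30 in V5. The low glucose samples of V5.TM6*P overlapped the V5 range and the other 4 lay above it. The change was -1.53 ± 0.33 (SE) in V5.TM6*P (adjusted p = 0.421) and 0.40 ± 0.32 in V5. MRX12, a mitochondrial protein, had a change of -1.01 ± 0.24, but of 0.24 with the authors' table. ISF1, which has been linked to mitochondrial function, had one with a 95% interval of -1.58 to -0.42, and stood at 1.19 and 1.05 in the low glucose samples against 1.64 to 2.29 in the others. The other 6 of this group of 10 were HXT2, the cell wall stress sensor gene MID2 (-0.92), TDA6 (-1.11), the putative serine hydrolase gene FSH3 (-0.67), the pheromone-regulated gene PRM7 (-1.38) and AHP1 (-0.94). Single samples carried part of these values. PRM7 had -0.58 without the samples at 34.8 and 36.5 g/L and -2.09 without the one at 5.6 g/L, while MID2 had -1.46 and -0.52. All 10 kept their sign without both samples of the other print lot, where STP4, YPR148C, MRX12 and MID2, 4 of 10, still had an unadjusted p under 0.05. In V5, 8 of 10 had the same sign and 2 of 10 an unadjusted p under 0.05.

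Without the samples at 34.8 and 36.5 g/L, the change was smaller by over 1.5 times in 7 of the 10 genes higher at low glucose and in 2 of the 10 lower, PRM7 and AHP1. PUT2, the mitochondrial enzyme that completes proline breakdown to glutamate, had the lowest p of the genes higher at low glucose. Its levels were 3.56, 3.14, 3.01, 3.13, 2.25 and 2.38 in V5.TM6*P, against 2.76, 2.87, 2.21, 2.61, 1.94 and 1.70 in V5, lowest in both strains in the 2 samples with the most glucose. The change was 1.06 ± 0.26 (SE, 2.08-fold, adjusted p = 0.484) in V5.TM6*P and 0.97 ± 0.25 in V5, and without the samples at 34.8 and 36.5 g/L it was 0.58 in V5.TM6*P. FET4, a low-affinity iron transporter, stood at -1.04, -1.26, -1.67, -1.61, -3.04 and -2.72 in V5.TM6*P. Its change of 1.70 ± 0.46 was 0.83 without those samples and -0.57 with the authors' table. SCO1, which delivers copper to cytochrome c oxidase, had a change of 0.70 ± 0.26 in V5.TM6*P and 0.80 ± 0.25 in V5, and 0.72 in V5.TM6*P without them.

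In the same group were the flocculin gene FLO9 (1.63, and 0.58 without the samples at 34.8 and 36.5 g/L, but -0.44 with no floor and -0.35 with spots marked empty set to missing), the oxysterol-binding protein gene SWH1 (2.05 and 0.89), the acid phosphatase gene PHO3 (1.30 and 0.25) and YLL065W (1.24 and 0.17). The remaining members were the Mediator subunit gene SRB5 (1.28 and 1.26), the ATP sulfurylase gene MET3 (1.35 and 1.90) and the ATP synthase subunit gene ATP14 (0.66 and 0.31). Without those samples all 10 kept their sign, and 1, MET3, had an unadjusted p under 0.05. The repeat arrays of MET3 lay far apart, with -3.59 and -0.74 at 26.3 g/L.

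The RNA at 34.8 g/L was measured on 1 array of each print lot, which sets the lots side by side at 1 glucose level. On the array of the other lot against the array of the usual lot, FET4 had -4.78 against -1.31, PHO3 -3.17 against -0.89 and YLL065W -2.46 against 0.42. PUT2 had 1.69 against 2.82, while SWH1 (-4.85 against -4.72) and SRB5 (-1.39 against -1.51) were close on both arrays. Elsewhere the repeat arrays of SWH1 lay far apart within a lot, with -4.84 and -1.86 at 36.5 g/L and -4.75 and -1.30 at 25.1 g/L. MET3 went the other way, with -0.63 against -4.73. Without the 3 arrays of the other lot, which drops the 36.5 g/L sample, the changes were -0.0945 for PHO3, 0.29 for YLL065W, 0.40 for FET4 and 0.60 for PUT2, the 4 of the 10 genes higher at low glucose whose change became smaller by over 1.5 times. Those for FLO9 (1.54), SWH1 (2.33), SCO1 (0.72) and MET3 (3.63) had an unadjusted p under 0.05, as did 8 of the 10 genes lower at low glucose, PRM7 (-1.67) and AHP1 (-1.07) included. Each lot is represented by 1 array at 34.8 g/L, so the difference between these arrays has no replicate check. Both arrays at 36.5 g/L were of the other lot, and there PHO3 had -1.61 and -4.22 and FLO9 -2.33 and -4.35. FET4 (-2.76 and -2.68), YLL065W (-0.03 and -0.37) and PUT2 (2.52 and 2.24) were closer. Whether the gaps at 34.8 g/L come from the lot or from the spread between repeat arrays was not tested.

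**Figure D3:**
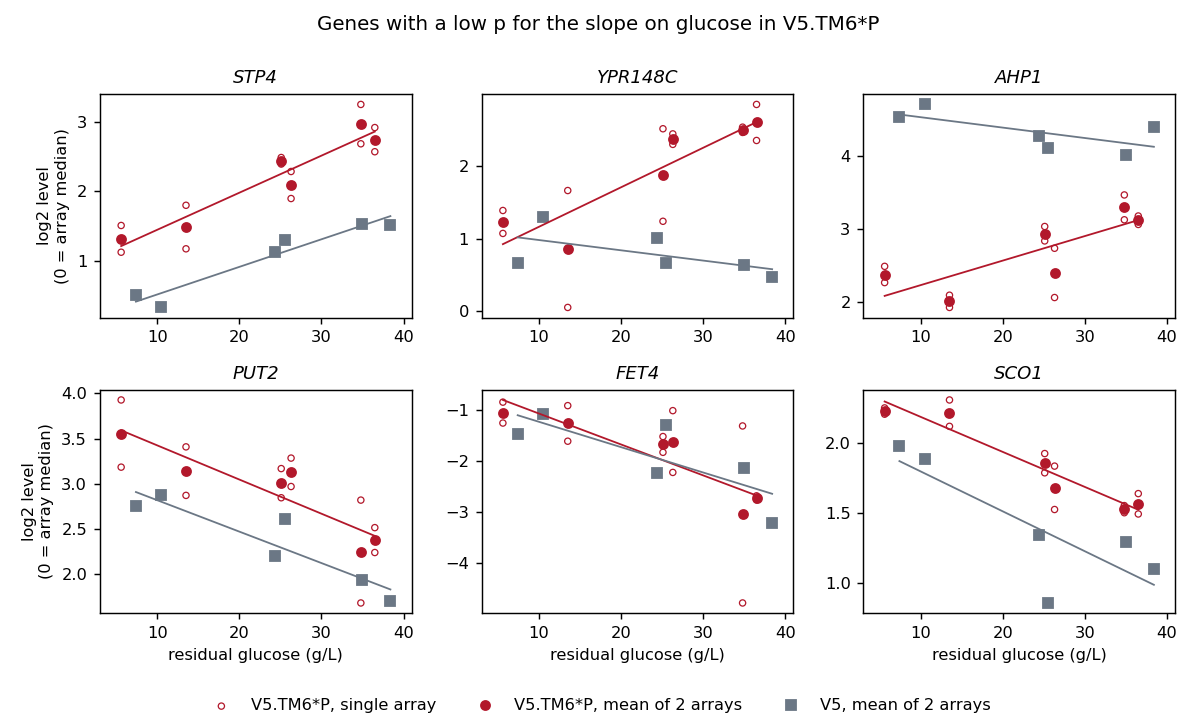
Log2 level (y axis, 0 is the array median) against residual glucose in g/L (x axis) for 3 genes lower at low glucose (top row) and 3 higher (bottom row), with V5.TM6*P in red and V5 in grey. Filled symbols are RNA samples, open circles single V5.TM6*P arrays, and lines the fitted slopes. STP4, PUT2, FET4 and SCO1 sloped the same way in both strains, YPR148C and AHP1 did not.

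**Figure D4:**
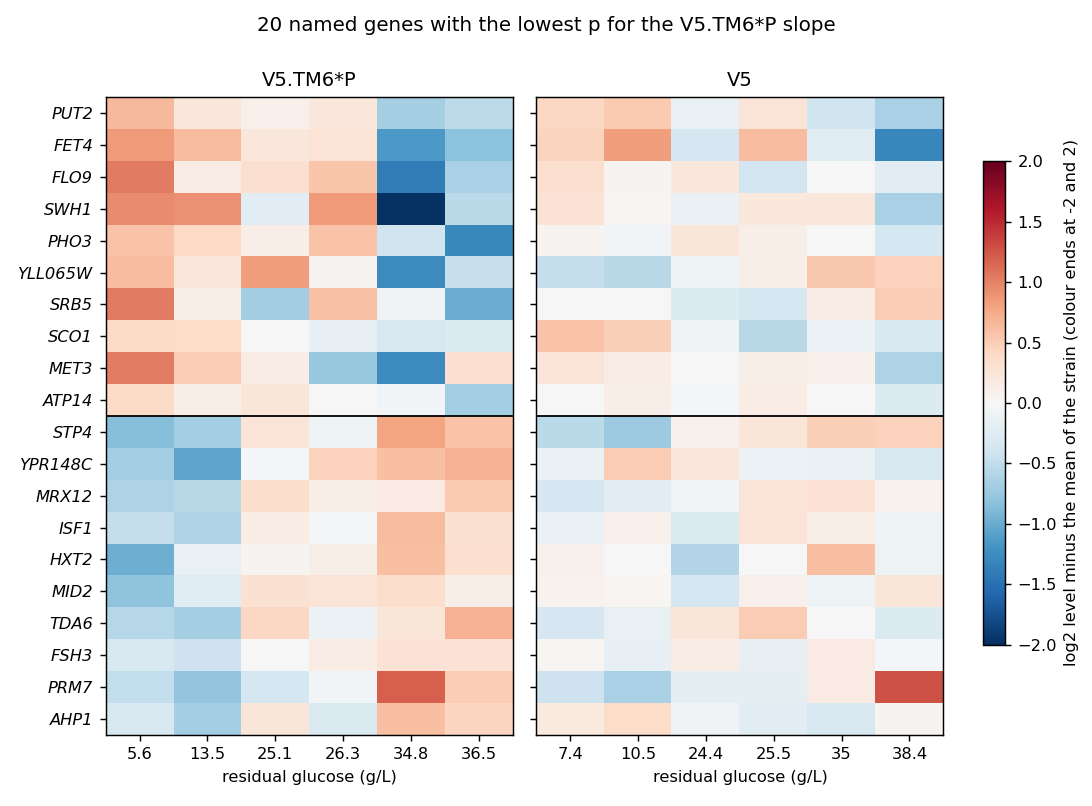
Levels of the 20 named genes with the lowest slope p in V5.TM6*P (rows, 10 higher at low glucose above the line and 10 lower below it) by residual glucose in g/L (columns), V5.TM6*P left and V5 right. Colour is the log2 level minus the gene's mean in that strain, ending at -2 and 2. The genes were chosen on the left panel, and in V5 16 of the 20 had the same sign, 8 in each block.

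An unadjusted p under 0.05 was found in both strains for 67 probes. They were 17.7% of the 378 in V5.TM6*P, against 12.2% of all probes for the V5 slope, and 8.70% of the 770 in V5, against 5.97% of all probes for the V5.TM6*P slope. No test of this overlap was made. The direction was the same for 46 of them, 14 higher and 32 lower at low glucose, and opposite for 21. Across all 6330 probes the changes in the 2 strains correlated at 0.03. Genes are not independent replicates, and both slopes were tested with 1 shared estimate of the spread. A total of 14 of the 67 had a name. SCO1, PUT2 and FET4 were higher at low glucose in both strains, and STP4 and PRM7 lower in both, while MAL31, QCR10, RCF1 and YLL065W had opposite signs.

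The counts of list members that follow are to be set against the shares of probes at an unadjusted p under 0.05. Over all probes these were 5.97% in V5.TM6*P (2.31% higher and 3.67% lower at low glucose) and 12.2% in V5 (5.75% and 6.41%). List members all come from the 1045 named probes, for which the shares were 5.26% in V5.TM6*P and 18.7% in V5. In V5 131 of the named probes were higher at such a p and 64 lower. In a list of 20 genes or fewer, 0 or 1 member at such a p in V5.TM6*P is near these shares and is no result about the list. As to sign alone, 3069 of all 6330 probes had a change above 0 in V5.TM6*P and 3261 below. Of 18 listed glycolytic genes 11 had a named probe, with a median change of -0.25 in V5.TM6*P and 0 of 11 at an unadjusted p under 0.05. In V5 3 were higher, HXK1, GLK1 and EMI2, and 4 were lower. The 4 were the pyruvate kinase gene CDC19 (-0.38 in V5.TM6*P, -1.08 in V5), the enolase gene ENO2 (-0.35 and -0.84), the phosphofructokinase gene PFK1 (0.09 and -0.65) and the triose phosphate isomerase gene TPI1 (0.09 and -0.71). For these 4 the slope difference had unadjusted p of 0.0859 to 0.230, so a difference between the strains was not shown.

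The genes around pyruvate and ethanol had negative changes in V5.TM6*P in all 6 members named, with a median of -0.46, and 1 of 6 had an unadjusted p under 0.05. That was PDC1, the main pyruvate decarboxylase of fermentation. Its levels were 2.62, 1.74, 2.59, 2.63, 3.55 and 2.86 in V5.TM6*P, against 4.86, 4.62, 4.87, 4.90, 4.91 and 4.76 in V5. PDC1 was lower in all 6 V5.TM6*P samples, and lowest in the sample at 13.5 g/L, whose arrays correlated least. The change was -0.86 ± 0.37 (SE, adjusted p = 0.800) in V5.TM6*P and -0.09 in V5, with a difference of -0.78 (95% interval -1.92 to 0.36). In V5.TM6*P it was -0.34 without the samples at 34.8 and 36.5 g/L, -0.52 without the one at 13.5 g/L and -1.78 without the one at 5.6 g/L. The paralogue PDC5 had a change of -0.54 ± 0.45 and the mitochondrial alcohol dehydrogenase gene ADH3 one of -0.37 ± 0.36 in V5.TM6*P.

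Respiratory genes had medians near 0 in V5.TM6*P and above it in V5. For the TCA cycle, with 13 of 14 genes named, the median change was 0.06 in V5.TM6*P with 0 of 13 at an unadjusted p under 0.05, and 0.75 in V5 with 7 of 13, all higher at low glucose. Succinate dehydrogenase, the enzyme shared by the cycle and the respiratory chain, held the 3 members with an unadjusted p under 0.05 for the slope difference. SDH2 had changes of -0.25 in V5.TM6*P and 1.07 in V5, SDH3 of -0.53 and 0.87, and SDH4 of -0.30 and 1.31. SDH1 had 0.31 in V5.TM6*P and 0.22 in V5. For the respiratory chain the median was 0.01 in V5.TM6*P, with 1 of 18, QCR10 (above), at an unadjusted p under 0.05 and lower, and 0.49 in V5, with 7 of 18, all higher. The complex IV subunit gene COX6 (0.08 in V5.TM6*P, 0.90 in V5) and the cytochrome c1 gene CYT1 (0.21 and 1.11) had the lowest p in V5. For ATP synthase the medians were 0.12 in V5.TM6*P, with 1 of 13, ATP14, at an unadjusted p under 0.05 and higher, and 0.50 in V5 with 5 of 13, all higher.

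Genes of gluconeogenesis and the glyoxylate cycle had a median change of 0.27 in V5.TM6*P and 0.19 in V5. In V5.TM6*P 7 of 9 were above 0, and 1 of 9, the peroxisomal citrate synthase gene CIT2 (-0.69 ± 0.31, SE, and -0.44 without the sample at 5.6 g/L), had an unadjusted p under 0.05. FBP1, fructose-1,6-bisphosphatase, stood at 0.68, 0.37, -0.06, 0.27, 0.65 and 0.14 in V5.TM6*P, against -5.02, -1.38, -3.54, -3.00, -0.99 and -2.20 in V5. All 6 V5.TM6*P samples lay above V5, in which 1 array was at the floor, and the change in V5.TM6*P was 0.24 with a 95% interval of -1.90 to 2.38. That interval is wide because the spread is shared with V5.

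Genes for other carbon sources had a median change of 0.21 in V5.TM6*P and 0.80 in V5, with 1 of 13 (MAL31, lower) and 8 of 13 (7 higher, 1 lower) at an unadjusted p under 0.05. STL1, the glycerol symporter, stood at 3.86, 4.19, 3.45, 3.19, 3.30 and 2.96 in V5.TM6*P and at 0.45, -0.79, -2.46, -3.61, -3.88 and -1.90 in V5. Its 2 low glucose samples were the highest in each strain, with changes of 0.91 ± 0.82 (SE) in V5.TM6*P and 2.81 ± 0.78 in V5, and a difference of -1.90 whose 95% interval ran from -4.41 to 0.61. DSF1, related to mannitol dehydrogenases, had changes of -0.06 ± 0.39 in V5.TM6*P and 1.94 ± 0.38 in V5. The glycerol kinase gene GUT1 had 0.34 ± 0.26 in V5.TM6*P and 0.80 in V5.

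Of the glucose signalling genes 6 of 26 had a named probe, and 0 of 6 had an unadjusted p under 0.05 in V5.TM6*P. The repressor genes MIG2 and MIG3 had changes of -0.12 ± 0.75 (SE) and -0.69 ± 0.99 in V5.TM6*P, against -1.97 and -2.10 in V5. The activator genes CAT8 and HAP4 had changes of 0.50 ± 0.93 and 0.16 ± 0.31 in V5.TM6*P, against -1.44 and 0.32 in V5. HAP4, which encodes the regulated subunit of the activator of respiratory genes, was above the highest V5 sample in all 6 V5.TM6*P samples, between 0.96 and 1.70. MIG2, MIG3 and CAT8 were dim, and their standard errors leave changes of more than 1 log2 unit in either direction possible.

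Genes of the stress response and of storage carbohydrate had a median change of 0.31 in V5.TM6*P, with 0 of 8 at an unadjusted p under 0.05, and 1.03 in V5, with 3 higher and 1 lower. The glycogen synthase gene GSY1 had changes of -0.46 ± 0.58 (SE) in V5.TM6*P and 1.54 in V5, and its paralogue GSY2 0.50 ± 0.49 and 1.66. Among 6 named genes of oxygen radical defence, 2 had an unadjusted p under 0.05 in V5.TM6*P, both lower at low glucose, against 3.67% of all probes, and neither value held its size without 1 or 2 of the samples. The thiol peroxidase gene AHP1 stood at 2.38, 2.01, 2.94, 2.40, 3.30 and 3.12 in V5.TM6*P, against 4.54, 4.71, 4.27, 4.12, 4.02 and 4.41 in V5. It lay below every V5 sample, with a change of -0.94 ± 0.31 (adjusted p = 0.596), and -0.56 without both samples of the other print lot. The thioredoxin gene TRX2 had a change of -0.54 ± 0.23, but of -0.21 without the sample at 5.6 g/L, and the mitochondrial superoxide dismutase gene SOD2 one of -0.62 ± 0.29. In V5 0 of the 6 had an unadjusted p under 0.05.

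Amino acid and metal uptake genes had 0 of 6 and 0 of 5 named members at an unadjusted p under 0.05 in V5.TM6*P, with medians of -0.12 and 0.01, against medians of -0.51 and 0.54 in V5. Ribosomal protein genes, which follow growth rate in yeast, had a median change of -0.07 in both strains over 38 cytosolic members. In V5.TM6*P 1 of 38, RPL42B, had an unadjusted p under 0.05. It had 3.24 at 5.6 g/L and 1.19 to 1.98 in the other samples, and its change of 1.13 ± 0.45 (SE) went to -0.07 without the 5.6 g/L sample. Mitochondrial ribosomal protein genes had a median of 0.03 in V5.TM6*P, with 0 of 47 at an unadjusted p under 0.05. In V5 the median was 0.32, with 8 of 47 at such a p, all higher at low glucose. This compares with 5.75% of all probes and 131 of the 1045 named probes.

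**Figure D5:**
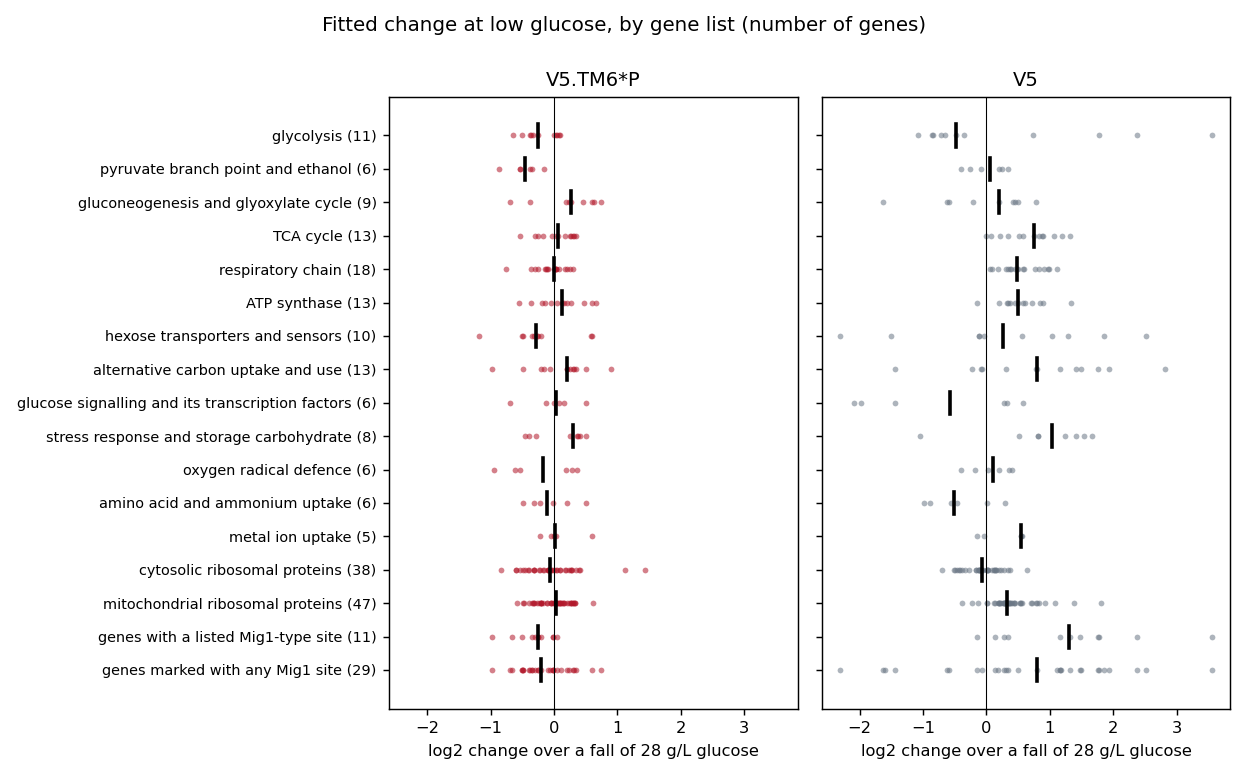
Fitted log2 change over a fall of 28 g/L glucose (x axis) for the named members of 17 gene lists (rows, number of genes in brackets), V5.TM6*P left and V5 right. Points are genes and black bars list medians. In V5.TM6*P the medians lie between -0.46 and 0.31, and in V5 between -0.58 and 1.31.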

How the data were processed

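The scanner files give spot and background intensity in linear units, which the authors measured by scanning exposed phosphor screens. The deposited table of processed values holds background-subtracted intensity on a linear scale, with further scaling not given in the sources used here. It served as an alternative. Per the methods, the authors set values under 0.1 to 0.1, took logarithms and fitted 1 line per strain. Here net intensity was spot minus background, floored at 0.1 and put on the log2 scale. The mean of both spots was used for the 1147 probes spotted as a pair, each array was centred on its median, and repeat arrays of 1 RNA were combined by their mean. Of 9600 spots, the 7477 in the authors' table were used.

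One intercept and 1 slope per strain were fitted over all 12 RNA samples in limma 3.58.1 under R 4.3.3 (lmFit and eBayes). P-values of the 6330 probes were adjusted by the method of Benjamini and Hochberg, and an adjusted p under 0.05 counted as a call. A second fit used means of 3 glucose stages per strain. Standard errors and 95% intervals are from the slope fit, which has 10.4 degrees of freedom. The standard error given for the low against high contrast is from the second fit. Scripts were tested on simulated data. Probes are numbered in the files. They were named by matching values computed from the authors' table to gene lists published with the study, and by print order, which follows ORF names. RGS2, ADH7, CHA4 and FAL1 had no named probe and were not analysed here. RefSeq symbols were found by locus tag for 981 names.

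The text names the 10 genes per direction with the smallest p for the V5.TM6*P slope and all 12 arrays above the floor. It also names the 10 with the smallest p for the slope difference, genes the study ties to glucose in V5, and members of the gene lists. An array counted as at the floor only where the mean net intensity of a probe's spots was. A floored spot in a pair therefore did not exclude a gene, though it lowered the level. Samples, lists and tests were chosen with earlier results of these data known. Genes named MRX were taken out of the mitochondrial ribosomal list after names were seen, because they are not all ribosomal proteins. P-values treat samples that share a fermentation as independent. Precision is limited by the number of arrays. Alternatives changed the floor, normalization, background, source, variance model, arrays, glucose scale and samples. Python 3.11.15, numpy 2.4.6, pandas 2.3.3, scipy 1.17.1, matplotlib 3.10.9 and statmod 1.5.0 were also used.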

Additional observations from a re-analysis of the deposited data

Results flagged for a closer look

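The correlation between the 2 arrays of an RNA sample was 0.749 for V5.TM6*P at 13.5 g/L glucose, against 0.820 to 0.863 for the other 5 V5.TM6*P samples. Its gap to the nearest sample was 0.627 of the whole range, just over the 95% limit for 6 samples. Among 39 groups of 6 values tested in this way it was the only one that passed the limit, and chance alone passes about 1 in 20. The same sample had the lowest cytosolic ribosomal protein genes, with a list median of -0.42 relative to each gene's mean, against -0.11 to 0.24 in the other 5.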

How the results depend on the processing

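Counts of called probes were small and moved with the variance model and the arrays. For the V5.TM6*P slope, 0 in the reported fit, they were 2 with normexp and quantile normalization, 1 with a robust trended variance, 3 with 24 arrays and the RNA sample as a block, 1 with log2 of glucose and 378 with no adjustment. For the V5 slope, 1 in the reported fit, they were 151, 91, 140, 4 and 770 under those settings, 7 with no floor, 6 with a floor of 1, 6 with the median set before the floor, 8 with the authors' table, 10 with spots marked empty set to missing, 2 without the arrays of the other print lot, and 0 with only the 6 samples of the strain, without the 2 lowest glucose points or without both V5.TM6*P samples of that lot. For the slope difference, 0 in the reported fit, they were 1 with normexp, 2 with the authors' table, 2 with the robust trended variance, 5 with 24 arrays and 515 with no adjustment. For low against high glucose in V5.TM6*P, 1 in the reported fit, they were 0 with no floor, a floor of 1, the median before the floor, the authors' table or only the 6 samples, 3 with normexp, 4 with empty spots missing, 5 with the robust trended variance, 10 with 24 arrays, 35 without the arrays of the other print lot and 403 with no adjustment. The F test over stages, 1 in the reported fit, gave 0 in the same 5 cases, 4 with empty spots missing, 7 with 24 arrays and 25 without those arrays. For low against high glucose in V5, 0 in the reported fit, they were 8 with the median before the floor, 4 with quantile normalization, 112 with normexp, 10 with the authors' table, 11 with empty spots missing, 79 with the robust trended variance and 142 with 24 arrays. The cause of these moves was not tested.

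With each sample left out in turn, the counts ran over 0 to 0 for the V5.TM6*P slope, 0 to 4 for the V5 slope, 0 to 0 for the slope difference, 0 to 32 for low against high glucose in V5.TM6*P, 1 to 31 for the F test and 0 to 26 for low against high glucose in V5. The highest were reached without the 5.6 g/L sample in V5.TM6*P (32 and 31) and without the 35 g/L sample in V5 (26 and 4). The V5.TM6*P slope had 354 to 588 probes at an unadjusted p under 0.05, the highest without the 5.6 g/L sample.

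For 36 gene results, 929 of 962 values kept their direction and their side of the threshold, 12 passed it and 21 changed sign. With the authors' table the V5.TM6*P changes were -0.57 for FET4 (1.70 as reported), 0.24 for MRX12 (-1.01), 0.0777 for CYB2 (-0.20) and -0.24 for FBP1 (0.24). FLO9, 1.63, had -0.44 with no floor and -0.35 with spots marked empty set to missing, PHO3, 1.30, had -0.0945 without the arrays of the other print lot, and DSF1, -0.06, had 0.0236 with quantile normalization. Without the 2 lowest glucose points the changes were 0.18 for MID2, -1.38 for GLK1, 0.28 for DSF1, 0.62 for CYB2 and -0.73 for FBP1. With single samples left out, the change ran from -0.53 to 0.0692 for HXK1 (highest without 36.5 g/L), -0.24 to 0.30 for GLK1 (below 0 also at -0.0170, without 26.3 g/L), -0.49 to 0.30 for DSF1 (above 0 also at 0.14, without 13.5 g/L), -0.78 to 0.43 for CYB2 (above 0 also at 0.21, without 36.5 g/L) and -0.0787 to 0.50 for FBP1 (lowest without 5.6 g/L). Of 442 list medians 46 moved by more than the spread between replicates, over all 17 lists. Leaving out probes with a mean net intensity under 1 removed 0 probes. The print lot samples, the F test and the V5 stage contrast were tried after seeing the data. No paired analysis was possible because sampling numbers mark falling glucose within a strain and the labels give no pairing between strains.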
